A study of Mus musculus with 37 samples.

Results

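The genes that carry a cytokine signal through a gp130 receptor to STAT3 were followed in astrocytes from the hippocampus of mice with post-traumatic epilepsy. The 10 genes were taken by symbol from the 21975 gene identifiers of the count tables: the ligand Cntf, the receptor chains Il6st, Lifr, Cntfr and Il6ra, the kinases Jak1 and Jak2, the transcription factor Stat3, and Socs3 and Cebpd, which are induced through it. All 10 were found and were measured in both hemispheres. The mice were adult males of the CD1 strain by the study's methods, and their genotype is labelled WT CD31 Injured or WT CD31 Sham. Injured mice received a controlled cortical impact through a craniectomy over the right parietal bone, and sham mice had the craniectomy and the recording electrodes without the impact. By the study's methods, PTE+ mice were injured mice in which EEG and video recording showed repeated epileptic episodes, and PTE- mice were the injured mice that did not meet this criterion, so a PTE- mouse could have had a single episode. Tissue was taken 4 months after the injury from the ipsilateral (injured) and the contralateral hippocampus. Astrocytes were enriched with beads against ACSA-2, an astrocyte surface antigen, and their RNA was sequenced in bulk after SMART-Seq V4 amplification. There were 20 contralateral libraries (5 PTE+, 10 PTE- and 5 sham) and 17 ipsilateral ones (4, 8 and 5 in the same order), with 1 mouse per library. Only the deeper impact was used for astrocyte isolation, so milder injuries were not represented.

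Cytokines of the IL-6 family bind a receptor made of the shared chain gp130, encoded by Il6st, and a partner chain such as the LIF receptor, and some of them also need an alpha chain such as the CNTF or the IL-6 receptor. Binding activates Janus kinases held by the receptor, which phosphorylate STAT3, and phosphorylated STAT3 pairs up, enters the nucleus and switches on target genes. Socs3 is such a target and its product shuts the receptor off again. In astrocytes this route is known for driving reactive gliosis, with Gfap and Vim among its target genes. The libraries measure RNA only, so phosphorylation of STAT3 was not observed.

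STAT3 dimers bind a palindrome with the letters TTCNNNGAA. The motif was searched on both strands in RefSeq promoter windows of 300 bases, 250 before and 50 after each annotated start, on GRCm38.p6. Of the 32851 windows, 2726 (8.30%) hold it, and 9.55% of the 27025 genes have at least 1 window with it. A window was given for 9 of the 10 genes, in 15 windows, and the Socs3 window holds the motif. Among the other target and regulator genes listed for the pathway, 4 of the 23 with a window hold it, and these are Steap4, Cish, Gfap and Bcl6. The site of Socs3 and 1 site of each of these genes are shown with 10 flanking bases on each side, 5′ to 3′ along the gene, because Socs3 is the feedback gene of the route and the others are the listed genes that share the motif with it. Capitals mark the motif.

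Socs3: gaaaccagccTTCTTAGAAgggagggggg

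Gfap: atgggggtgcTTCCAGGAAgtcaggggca

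Steap4: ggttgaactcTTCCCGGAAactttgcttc

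Cish: ccgcccagttTTCCTGGAAagttcttgga

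Bcl6: aggccgcggcTTCCTGGAAagttacttct

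The Socs3 stretch lies at chr11:117969502-117969530 on the minus strand and the motif begins 154 bases before the annotated start. The Gfap stretch is at chr11:102897184-102897212 (minus strand), the Steap4 stretch at chr5:7960346-7960374 (plus strand), the Cish stretch at chr9:107296649-107296677 (plus strand) and the Bcl6 stretch at chr16:23981433-23981461 (minus strand). Cish and Bcl6 hold further matches in their windows. A match of letters is a description of these windows and was not tested for binding.

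Library totals were 25371887 to 55333329 counts on the contralateral side and 36925501 to 59846479 on the ipsilateral side, and 9020 to 15545 genes had at least 1 count. In 5 libraries fewer than 12000 genes were detected. These were the contralateral PTE- libraries of mice a9_14 and a9_20, the ipsilateral PTE- libraries of a8_11 and a8_14 and the ipsilateral sham library of a9_9. The summed level of 10 astrocyte markers was 11214 to 37274 CPM, a count scaled to the total of its library and adjusted by TMM within a hemisphere. Against this, the sums were 27.2 to 1331 CPM for 10 microglial, 53.3 to 1996 CPM for 10 neuronal, 284 to 4534 CPM for 10 endothelial and mural, 879 to 3405 CPM for 10 oligodendrocyte and 101 to 6890 CPM for 8 ependymal and choroid plexus markers. RNA of other cells was therefore present at a varying level. The ependymal and choroid plexus sum was high in the ipsilateral PTE- libraries of a8_11, at 6890 CPM beside an astrocyte sum of 11214 CPM, and of a9_12, at 5158 beside 17190 CPM. In such bulk libraries fewer cells of a type and less RNA per cell cannot be told apart.

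Per transcript length, Stat3, Cntfr and Jak1 were the most abundant of the 10 genes on both sides. In the contralateral libraries the level in TPM, the length-corrected share of all transcripts, was 84.2 ± 33.5 for Stat3, 81.1 ± 44.8 for Cntfr and 67.3 ± 27.5 for Jak1 (mean ± SD, n = 20). Il6st followed with 34.1 ± 24.0 TPM, then Socs3 with 16.9 ± 11.4, Cebpd with 12.03 ± 5.73, Jak2 with 11.4 ± 10.6 and Lifr with 9.99 ± 7.97 TPM. Il6ra (1.36 ± 2.16 TPM) and Cntf (2.79 ± 5.99 TPM) were the scarcest, with medians of 0.715 and 0.57 TPM. In this order by median, the only neighbours whose means lay further apart than the SD of either were Jak1 and Il6st, and Lifr and Il6ra. On the ipsilateral side the means were 86.3 ± 32.5 TPM for Stat3, 76.7 ± 29.8 for Jak1, 63.7 ± 24.1 for Cntfr and 27.2 ± 15.6 for Il6st (n = 17). There, only Cntfr and Il6st were such neighbours. Socs3 stood at 26.5 ± 39.1 TPM, Cebpd at 18.003 ± 13.1, Cntf at 17.1 ± 21.6, Jak2 at 11.5 ± 7.39, Lifr at 7.60 ± 6.46 and Il6ra at 1.35 ± 1.59 TPM.

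**Figure D1:**
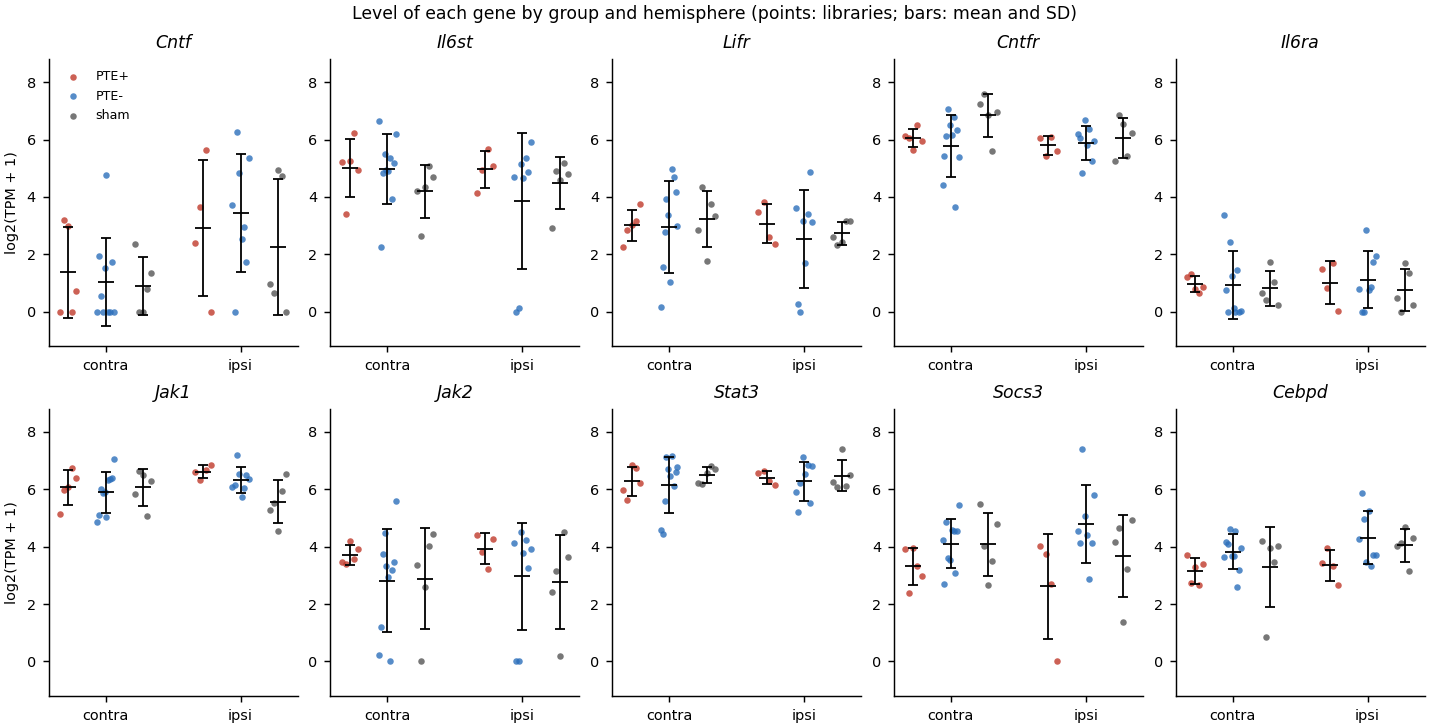
Level of each of the 10 genes in log2(TPM + 1) by hemisphere, with 1 point per library and bars for the mean and SD of PTE+, PTE- and sham libraries. Stat3, Jak1 and Cntfr lie high on both sides. Cntf, Il6ra and Jak2 include libraries at 0 on both sides, and Il6st, Lifr and Socs3 on the ipsilateral side.

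The spread between libraries of a group differed greatly among the genes. The biological coefficient of variation estimated by edgeR was lowest for Jak1 (0.367 contralateral, 0.446 ipsilateral) and Stat3 (0.403 and 0.423), against 1.32 and 1.40 common to all genes tested. It was 0.546 and 0.5681 for Cntfr, 0.580 and 1.18 for Il6st, 0.716 and 1.23 for Socs3, 0.712 and 0.743 for Cebpd and 0.907 and 1.18 for Lifr. Jak2 reached 1.36 and 1.44, Il6ra 1.64 and 1.75 and Cntf 2.69 and 1.83.

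Part of this spread came from libraries in which a gene was not detected. A gene with at most 3 counts was taken to be at the counting limit, 0.054 to 0.118 CPM depending on depth, a limit that covers counting error only. Cntf was at the limit in 9 of 20 contralateral and 3 of 17 ipsilateral libraries, Il6ra in 4 and 3, and Jak2 in 2 and 2. Il6st, Lifr and Socs3 were each at the limit in 1 ipsilateral library, and Stat3, Jak1, Cntfr and Cebpd in none. Of the 5 libraries with fewer than 12000 genes, 4 had at least 1 of the 10 genes at the limit, with up to 4 genes in a library, compared with 12 of the other 32 libraries and up to 2 genes. Every group had at least 1 library above the limit for every gene.

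**Figure D2:**
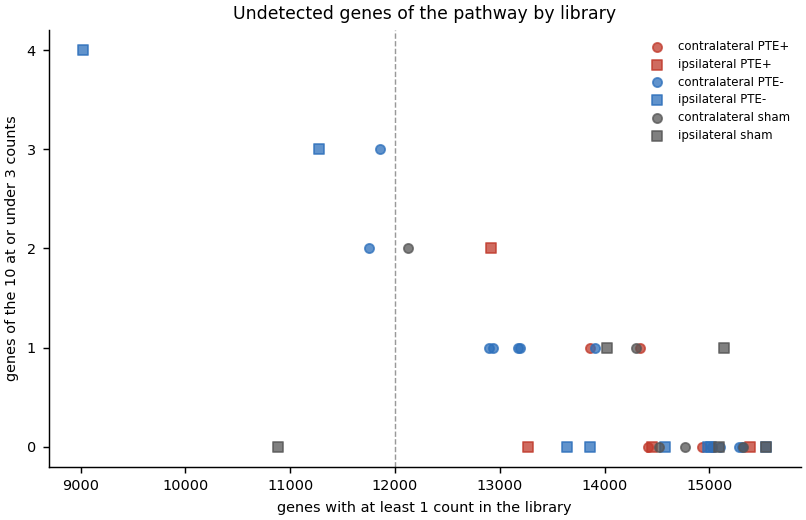
Number of the 10 genes with at most 3 counts (y axis) against the number of genes with at least 1 count in the library (x axis), with 1 point per library, circles for contralateral and squares for ipsilateral libraries. The dashed line is at 12000 genes, and the library with 9020 genes, an ipsilateral PTE- library, has the most undetected genes (4).

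None of the 10 genes passed an adjusted p of 0.05 in any of the 12 comparisons made with the quasi-likelihood test of edgeR (lowest adjusted p = 0.549, Jak1 between hemispheres in PTE-, and 0.316 for the same value without the filter on low counts). The description below therefore gives levels and unadjusted p-values, each to be read against the share of all genes that reached an unadjusted p of 0.05. These p-values measure the spread between these libraries, each from 1 hippocampus of 1 mouse. For each of the 10 genes the values of the compared groups overlapped in all 6 comparisons between groups. This held for nearly all genes. The groups did not overlap in 7, 4 and 92 of 14642 genes contralaterally and in 25, 14 and 164 of 14903 ipsilaterally. The order is PTE+ against PTE-, PTE- against sham and PTE+ against sham. The direction of many genes depended on the scale. The counts and medians in the next paragraphs are from the edgeR fit, whereas the differences of mean log2(CPM + 1), the scale of the permutation test, were positive for 6 and negative for 4 of the 10 genes in each of the 6 comparisons. PTE+, PTE- and sham libraries enter 2 comparisons each, so the comparisons of a hemisphere share libraries and are not independent.

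Contralateral PTE+ against PTE- gave 8 genes lower and 2 higher in the fit, with a median log2 fold change of -0.23 compared with -0.05 over the 14642 genes tested. On log2(CPM + 1) the majority turned, with 4 lower and 6 higher and a median of 0.16. With edgeR 0 of the 10 had an unadjusted p under 0.05, where 2.21% of all genes did, and DESeq2 gave 1 (Socs3) and limma voom 0. The shares here and below are those of edgeR, and limma voom put 952 of the 14642 genes under 0.05. In contralateral PTE- against sham 6 were higher and 4 lower, with a median of 0.31 compared with 0.07, and 1 gene (Il6st) had a p under 0.05, where 1.54% of all genes did. For contralateral PTE+ against sham 6 were higher and 4 lower, with a median of 0.10 compared with 0.03, and edgeR gave 0 of the 10, where 1.23% of all genes were under 0.05, DESeq2 0 and limma voom 1 (Cntfr). In this comparison limma voom put 627 of the 14642 genes under 0.05.

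Ipsilateral PTE+ against PTE- gave 6 genes lower and 4 higher in the fit, with a median of -0.13 compared with -0.01 over the 14903 genes tested, whereas log2(CPM + 1) gave 4 lower and 6 higher, with a median of 0.02. In the fit 1 gene (Cebpd) had a p under 0.05, where 1.75% of all genes did. In ipsilateral PTE- against sham 8 were higher and 2 lower, with a median of 0.41 compared with 0.02 (6 and 4, median 0.11, on log2(CPM + 1)). Here edgeR gave 0 of the 10 at an unadjusted p under 0.05, where 1.58% of all genes were, DESeq2 0 and limma voom 2 (Il6ra and Cntf). Of the 14903 genes, DESeq2 put 425 and limma voom 737 under 0.05, more than the 236 of edgeR. For ipsilateral PTE+ against sham 6 were higher and 4 lower, with a median of 0.29 compared with 0.00, and edgeR, DESeq2 and limma voom each gave 0 of the 10, where 1.66% of all genes were under 0.05 with edgeR.

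**Figure D3:**
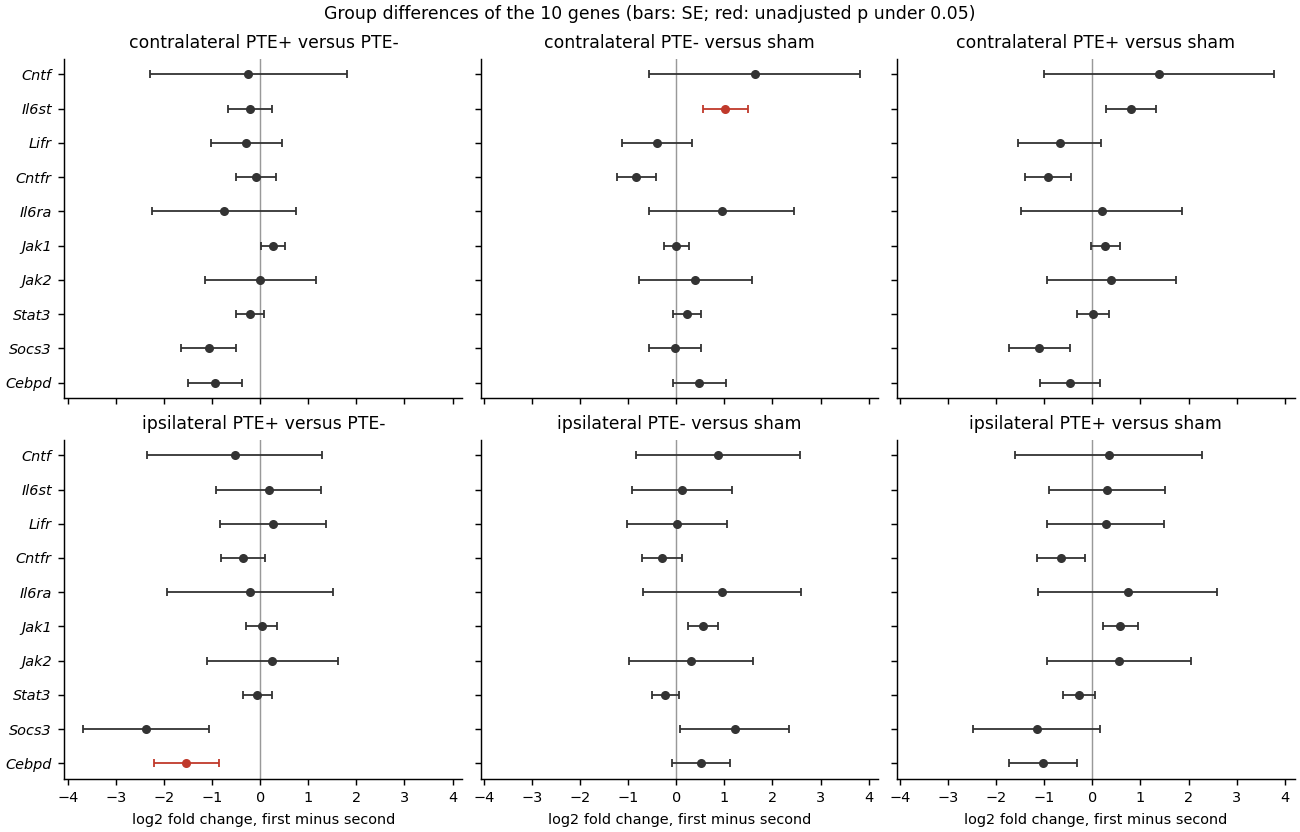
Log2 fold change of each gene in the 6 comparisons between groups (first minus second group), with bars of 1 SE from edgeR and red for an unadjusted p under 0.05. Red marks Il6st in contralateral PTE- against sham and Cebpd in ipsilateral PTE+ against PTE-. Socs3 and Cebpd lie left of 0 in PTE+ against PTE- on both sides, as do Stat3, Cntfr, Il6ra and Cntf.

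Cntf (ENSMUSG00000079415, chr19:12763660-12765632, minus strand, with gene positions here and below on GRCm38) encodes ciliary neurotrophic factor and was the scarcest of the genes in the contralateral libraries. It stood at 0, 0, 0.341, 3.25 and 5.03 CPM in PTE+, at 0 to 15.5 CPM in PTE- with a median of 0.144, and at 0, 0, 0.344, 0.713 and 2.24 CPM in sham. Ipsilateral values were 0, 2.22, 5.08 and 23.8 CPM in PTE+, 0 to 43.2 CPM in PTE- with a median of 5.10, and 0, 0.352, 0.656, 12.3 and 17.4 CPM in sham. Every group on either side thus ranged from 0 to more than 2 CPM. The log2 differences between groups lay between -0.53 and 1.63, with p from 0.467 to 0.906. Cntf shares 847 exon bases, 78.9% of its own, with Zfp91 on the same strand, so its count is uncertain: how the estimated counts were divided between these genes was not tested.

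Il6st (ENSMUSG00000021756, chr13:112464070-112510086, plus strand) encodes gp130, the chain that all receptors of the family share. Contralateral levels were 46.7, 101, 122, 145 and 230.1 CPM in PTE+, 29.1 to 354 CPM in PTE- with a median of 121, and 25.5, 74.0, 78.1, 87.2 and 103 CPM in sham. The sham libraries lay within the range of the PTE- libraries except for the lowest, from mouse a8_16, and the upper PTE- libraries exceeded all of them. Il6st was 2.03-fold higher in PTE- than in sham (log2 fold change 1.02, SE 0.468, unadjusted p = 0.0402, adjusted p = 1, edgeR). Limma voom gave 0.29 (p = 0.378), and the fit without the libraries under 12000 genes 0.89 (p = 0.0786). The exact permutation test gave p = 0.111 (n = 10 and 5, two-sided), and leaving out 1 library at a time gave 0.78 to 1.17 on the log2 scale, with p above 0.05 in 7 of 15 fits (0.0505 to 0.109, without PTE- a8_9, a8_14 or a9_20 or sham a8_15, a8_16, a9_9 or a9_11). The difference in log2(CPM + 1) was 1.47 among mice whose name begins with a8 and 0.47 among those whose name begins with a9, a prefix the labels do not explain. PTE+ against sham gave 0.81 (SE 0.519, p = 0.133). On the ipsilateral side Il6st was at 67.2, 96.6, 96.8 and 182 CPM in PTE+, at 0 to 190.3 CPM in PTE- with a median of 113, and at 35.1, 74.5, 90.4, 121 and 128 CPM in sham. The PTE- value of 0 was in mouse a8_11 and the next, 0.388 CPM, in a8_14, both among the libraries with few genes detected. The fitted log2 differences there were between 0.12 and 0.30, with p of 0.807 or more. In mean log2(CPM + 1) PTE- against sham was -1.07 (exact permutation p = 0.494) and PTE+ against PTE- 1.40 (exact permutation p = 0.453), so no direction is given for Il6st on this side.

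Cntfr (ENSMUSG00000028444, chr4:41657498-41697089, minus strand) encodes the alpha chain that binds CNTF. Contralateral levels were 49.2, 63.0, 78.1, 91.6 and 93.9 CPM in PTE+, 16.2 to 161 CPM in PTE- with a median of 87.1, and 52.3, 120.3, 135, 185 and 216 CPM in sham. Of the 5 sham libraries, 4 lay above all PTE+ libraries, and the remaining one lay near the lowest of them. The log2 fold change was -0.83 in PTE- against sham (SE 0.40, p = 0.0501, exact permutation p = 0.0909) and -0.91 in PTE+ against sham (SE 0.478, p = 0.0690, exact permutation p = 0.0873), so neither passed with edgeR. Unadjusted, DESeq2 put PTE- against sham under 0.05 (-0.82, p = 0.0499) and limma voom put PTE+ against sham there (-0.87, p = 0.0318). The values for PTE- against sham were -1.39 among the a8 and -0.60 among the a9 mice in log2(CPM + 1), and for PTE+ against sham -1.23 and -0.51. PTE+ and PTE- were close, with a log2 fold change of -0.08 (SE 0.412). Ipsilateral levels were 38.8, 43.8, 74.2 and 75.8 CPM in PTE+, 33.0 to 104 CPM in PTE- with a median of 84.1, and 45.6, 57.4, 76.4, 118 and 161 CPM in sham, with p of 0.205 or more.

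Lifr (ENSMUSG00000054263, chr15:7090614-7197489, plus strand), the LIF receptor chain, ranged from 0.210 to 134 CPM contralaterally and from 0 to 118 CPM ipsilaterally. Its lowest values were in the contralateral library of PTE- mouse a8_9 and in the ipsilateral libraries of a8_11 and a8_14. Its group differences lay between -0.68 and 0.27 on the log2 scale, with p of 0.432 or more. Il6ra (ENSMUSG00000027947, chr3:89864059-89913196, minus strand), the alpha chain of the IL-6 receptor, ranged from 0 to 24.2 CPM contralaterally and from 0 to 12.2 CPM ipsilaterally. The library with the 24.2 CPM, from PTE- mouse a8_9, also had the highest microglial marker sum of the contralateral libraries (1331 CPM), and the part of these cells in the value was not tested. Group differences of Il6ra were between -0.75 and 0.94 on the log2 scale with SE of 1.49 to 1.86, and no p was under 0.538.

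Of the receptor-bound kinases, Jak1 (ENSMUSG00000028530, chr4:101152367-101265282, minus strand) was high and even. It stood at 108, 155, 188, 245 and 278 CPM in contralateral PTE+, at 99.3 to 226 CPM in PTE- with a median of 169, and at 89.8, 164, 175, 177 and 202 CPM in sham. Ipsilateral values were 205, 229, 273 and 315 CPM in PTE+, 159 to 463 CPM in PTE- with a median of 221, and 77.7, 153, 174, 192 and 255 CPM in sham. On the ipsilateral side all PTE+ libraries thus lay above 4 of the 5 sham libraries, and all PTE- libraries above 2 of them. The log2 fold change against sham was 0.55 for ipsilateral PTE- (SE 0.311, p = 0.0921, exact permutation p = 0.0925) and 0.58 for ipsilateral PTE+ (SE 0.358, p = 0.119, exact permutation p = 0.0635). Contralateral differences were between -0.0021 and 0.27, with p of 0.297 or more.

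Jak2 (ENSMUSG00000024789, chr19:29251828-29313080, plus strand) was more variable, from 0 to 129.5 CPM contralaterally and 0 to 59.9 CPM ipsilaterally. It was at 0 in the contralateral libraries of PTE- mouse a9_14 and sham mouse a8_16 and in the ipsilateral libraries of PTE- mice a8_11 and a8_14. PTE+ libraries were all above 20 CPM, at 27.8, 28.04, 34.0, 39.2 and 44.6 CPM contralaterally and 23.3, 32.6, 43.3 and 59.9 CPM ipsilaterally. Group differences were between 0.01 and 0.56 on the log2 scale with SE of 1.16 to 1.499, and p was 0.715 or more.

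Stat3 (ENSMUSG00000004040, chr11:100885098-100939540, minus strand), the transcription factor on which the route converges, was among the most even of the genes. Contralateral levels were 127, 135, 141, 175 and 209.6 CPM in PTE+, 60.2 to 316 CPM in PTE- with a median of 201, and 91.4, 153, 159, 169.9 and 204 CPM in sham. Ipsilateral levels were 168, 171, 174 and 177 CPM in PTE+, 104 to 264 CPM in PTE- with a median of 180.5, and 156, 178, 196, 199.9 and 324 CPM in sham. The PTE- libraries spanned the PTE+ libraries on both sides, and the 4 ipsilateral PTE+ libraries lay within 10 CPM of each other. The contralateral log2 fold changes were -0.21 for PTE+ against PTE- (SE 0.292, p = 0.484), 0.23 for PTE- against sham (SE 0.292, p = 0.445) and 0.02 for PTE+ against sham (SE 0.335, p = 0.954). The ipsilateral ones were -0.06 (SE 0.303, p = 0.848), -0.23 (SE 0.280, p = 0.424) and -0.29 (SE 0.333, p = 0.398). With these errors no difference in Stat3 RNA was detected in any of these comparisons, which does not show that the levels were equal.

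Socs3 (ENSMUSG00000053113, chr11:117966079-117970047, minus strand), the feedback inhibitor, had the widest gap between the injured groups in the edgeR fit. In mean log2(CPM + 1) the contralateral gap was wider for Jak2 (1.04) than for Socs3 (-0.95). In contralateral PTE+ it stood at 8.07, 10.5, 12.6, 20.2 and 21.7 CPM, in PTE- at 13.9 to 64.0 CPM with a median of 30.6, and in sham at 8.30, 15.2, 26.1, 35.3 and 72.7 CPM. All PTE+ values lay below the PTE- median, but the 2 upper ones fell within the PTE- range. Socs3 was 2.10-fold lower in PTE+ than in PTE- (log2 fold change -1.07, SE 0.571, p = 0.0737, adjusted p = 1, edgeR). The exact permutation test on log2(CPM + 1) gave p = 0.0280 (n = 5 and 10, two-sided, smallest possible 0.000333), 1 of 2 values under 0.05 among the 60 such tests over the 10 genes and 6 comparisons, which were not adjusted. The difference was -0.87 among a8 and -0.99 among a9 mice. PTE+ against sham gave -1.11 (SE 0.635, p = 0.0954, exact permutation p = 0.206, and p = 0.0452 without sham a9_9), and PTE- against sham -0.03 (SE 0.543, p = 0.950).

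Ipsilateral Socs3 was at 0, 8.28, 17.2 and 23.6 CPM in PTE+, at 4.29 to 269.9 CPM in PTE- with a median of 37.8, and at 2.73, 12.4, 35.6, 41.1 and 45.4 CPM in sham. All 4 PTE+ values again lay below the PTE- median, while 1 PTE- library, from mouse a8_14, stood far above the next highest at 82.2 CPM. The log2 fold change of PTE+ against PTE- was -2.37 (SE 1.32, p = 0.0886, exact permutation p = 0.0909). Without that library it was -1.48, the smallest in size of the fits that left out 1 library. It was -0.63 among a8 mice, with a single PTE+ library, and -2.57 among a9 mice. PTE- against sham gave 1.21 (SE 1.14, p = 0.299), falling to 0.31 without the library of a8_14, and PTE+ against sham -1.16 (SE 1.31, p = 0.388).

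Cebpd (ENSMUSG00000071637, chr16:15887286-15891031, plus strand) encodes a transcription factor induced by cytokines, and its group means had the same order on both sides, lowest in PTE+ and highest in PTE-. By median PTE+ was again lowest, but PTE- was below sham ipsilaterally (37.6 and 47.9 CPM) and close to it contralaterally (31.9 and 31.2 CPM). In contralateral PTE+ it stood at 11.4, 16.3, 19.3, 22.3 and 28.8 CPM, in PTE- at 14.5 to 73.5 CPM with a median of 31.9, and in sham at 2.11, 23.1, 31.2, 34.1 and 44.7 CPM. Every PTE+ value was below the PTE- median. The log2 fold change of PTE+ against PTE- was -0.94 (SE 0.565, p = 0.111, exact permutation p = 0.0366), at -1.12 among a8 and -0.62 among a9 mice in log2(CPM + 1).

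Ipsilateral Cebpd was at 11.1, 20.8, 23.6 and 31.1 CPM in PTE+, at 19.9 to 181 CPM in PTE- with a median of 37.6, and at 18.4, 40.9, 47.9, 48.0 and 64.6 CPM in sham. The PTE+ values lay below the PTE- median and below 4 of the 5 sham values. Cebpd was 2.90-fold lower in PTE+ than in PTE- (log2 fold change -1.53, SE 0.678, unadjusted p = 0.0359, adjusted p = 1, edgeR, exact permutation p = 0.0909). The highest PTE- value was in mouse a8_11, the library with the fewest genes detected, the lowest astrocyte marker sum (11214 CPM) and the highest ependymal and choroid plexus sum (6890 CPM). Without that library the log2 fold change was -1.04 (p = 0.0707), and it was -0.94 (p = 0.0895) without all libraries under 12000 genes. Limma voom gave -0.48 (p = 0.387), and the prefix as a covariate -1.30 (p = 0.0641). Leaving out PTE+ a8_10, a9_18 or a9_19 or PTE- a9_13 also gave a p above 0.05 (0.0620 to 0.0970). PTE+ against sham gave -1.02 (SE 0.705, p = 0.165, exact permutation p = 0.0635). Cebpd shares 562 exon bases, 15% of its own, with Spidr on the opposite strand, and whether the counting used strand is not given in the sources used here.

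Socs3 and Cebpd are also known as immediate early genes, which cells switch on within minutes of a stimulus. A list of 12 other immediate early genes (Fos, Fosb, Jun, Junb, Egr1, Atf3, Nr4a1, Dusp1, Ier2, Zfp36, Btg2 and Klf4) had 11 of 12 lower in contralateral PTE+ than in PTE-, with a median log2 fold change of -0.80 compared with -0.05 over all genes, and 1 under an unadjusted p of 0.05 (Egr1, -2.62, p = 0.00909). Ipsilaterally 10 of 12 were lower in PTE+ than in PTE-, with a median of -0.55 compared with -0.01, and 0 were under 0.05 with edgeR. Their summed level was 646 to 2193 CPM in contralateral PTE+, 920 to 6173 CPM in PTE- and 563 to 4736 CPM in sham. Ipsilaterally it was 479 to 1405 CPM in PTE+, 655 to 5458 CPM in PTE- and 467 to 4464 CPM in sham. The PTE- library of a8_14, with the highest ipsilateral Socs3, also had the highest of the ipsilateral sums. This did not hold contralaterally, where a8_14 again had the highest sum (6173 CPM) but Socs3 at 17.9 CPM, and the highest PTE- Socs3, 64.0 CPM in a9_20, stood beside a sum of 1179 CPM. In PTE+ against sham the list was lower in 11 of 12 contralaterally (median -0.74) and in 12 of 12 ipsilaterally (median -1.05). In ipsilateral PTE- against sham it was also lower in 11 of 12 (median -0.65, with Dusp1 at p = 0.0330), although Socs3 and Cebpd had positive log2 fold changes there (1.21 and 0.51). In contralateral PTE- against sham 7 of 12 were lower (median -0.01). The part of the immediate early response in the levels of Socs3 and Cebpd was not tested.

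**Figure D4:**
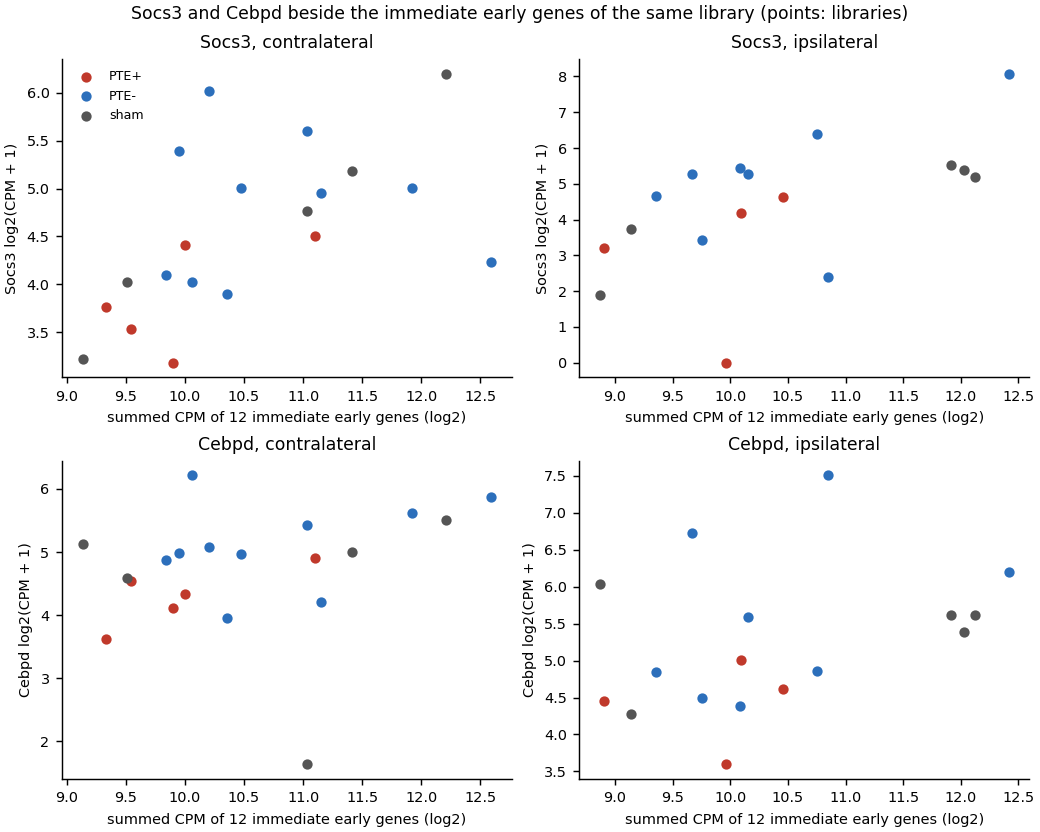
Socs3 (top) and Cebpd (bottom) in log2(CPM + 1) against the log2 of the summed CPM of 12 immediate early genes in the same library, contralateral left and ipsilateral right, with 1 point per library coloured by group. The ipsilateral PTE- library with the highest Socs3 lies furthest to the right, at 5458 CPM of immediate early genes.

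Markers of other cell types also differed between groups. In contralateral PTE+ against PTE- all 10 neuronal and all 10 endothelial and mural markers were higher, with medians of 1.30 and 0.90 on the log2 scale, and 1 of each list (Snap25 and Ly6c1) had an unadjusted p under 0.05. In contralateral PTE+ against sham 9 of 10 endothelial and mural markers were higher (median 1.04), with Cldn5 under 0.05 (p = 0.0227, edgeR). In ipsilateral PTE+ against PTE- all 8 ependymal and choroid plexus markers were lower (median -1.35). All 8 were higher in ipsilateral PTE- against sham (median 1.73), with 0 under 0.05 with edgeR in either. Contralaterally all 8 were also higher in PTE- than in sham (median 0.50), with Ttr under 0.05 (p = 0.0114, edgeR). Astrocyte markers were lower than in sham on the ipsilateral side, 8 of 10 in PTE- (median -0.30) and 9 of 10 in PTE+ (median -0.31), with Aldh1l1 and Aldoc under 0.05 in both. Of the oligodendrocyte markers tested, 8 of 9 were lower in ipsilateral PTE- than in sham (median -1.09), and 9 of 10 neuronal markers were lower in contralateral PTE- than in sham (median -0.83), with 0 under 0.05 with edgeR in either. Microglial markers were lower in ipsilateral PTE+, 8 of 10 against PTE- (median -0.83) and 8 of 10 against sham (median -0.69). Contralaterally they were higher than in sham, 9 of 10 in PTE- (median 0.65) and 8 of 10 in PTE+ (median 0.75). None of these was under 0.05 with edgeR. The defining marker Kl was at the counting limit in all contralateral PTE+ libraries and Mog in all ipsilateral PTE+ libraries. The part of these cells in the values of the 10 genes was not tested.

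Among the targets of STAT3, 18 genes were listed, and 14 were tested on the contralateral and 18 on the ipsilateral side. Contralaterally they were divided evenly or nearly so, with 7 higher and 7 lower in PTE+ against PTE- (median 0.08), 6 and 8 in PTE- against sham (median -0.05) and 8 and 6 in PTE+ against sham (median 0.32), and edgeR gave 0 under an unadjusted p of 0.05. Ipsilaterally 15 of 18 were higher in PTE- than in sham, with a median of 1.16 compared with 0.02 over all genes. Of these, 4 were under 0.05, where 1.58% of all genes were. The 3 with the smallest p were Lcn2, Vim and Timp1. No ipsilateral sham library held Lcn2 or Timp1 above the counting limit, so both were kept for testing only through injured libraries. They could only come out higher than sham, so they add to the 15 and to the 4 in any case. Their p-values are no support for a rise and are not given. Vim, the intermediate filament gene of reactive astrocytes, had a log2 fold change of 1.75 (SE 0.622, p = 0.0115), with 65.8 to 473 CPM in sham and 238 to 2660.1 CPM in PTE-, the highest in mouse a8_11. Without that library it was 1.04 (p = 0.0380). Lcn2, a secreted lipocalin, was at 0 in all 5 ipsilateral sham libraries and above 0 in 4 of 8 PTE- libraries, up to 32.4 CPM. Its PTE- mean was at least 88.0-fold higher against a limit of 3 counts per library averaged over the group. Contralateral sham libraries were not all at the limit for Lcn2, so its absence in sham holds for the ipsilateral side only. Timp1, a metalloproteinase inhibitor, was at 0 in ipsilateral sham as well, and its PTE- mean was at least 72.5-fold higher. Among the PTE- libraries it was above 0 only in a9_12, a9_13 and a9_16, and the others were at 0. The highest values of both were in 1 PTE- library, from mouse a9_13, with 32.4 CPM of Lcn2 and 28.7 CPM of Timp1. Without it the lower bounds fell to 29.6-fold for Lcn2 and 19.96-fold for Timp1, which was then too low to be kept for testing. Timp1 was also not kept without a9_12 or without a9_16.

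In ipsilateral PTE+ against sham 14 of the 18 targets were higher, with a median of 0.29, and 1 was under 0.05, where 1.66% of all genes were. This gene, Lcn2, was at least 26.6-fold higher, or 8.06-fold without PTE+ a9_18. With every ipsilateral sham library at the limit for Lcn2 and Timp1, both could again only come out higher, and both are among the 14. In ipsilateral PTE+ against PTE- 13 of 18 were lower, with a median of -0.50 compared with -0.01, and 1 was under 0.05, where 1.75% of all genes were. That was Cebpb, a relative of Cebpd, with a log2 fold change of -1.39 (SE 0.585, p = 0.0287), and its p rose above 0.05 without PTE+ a9_17, a9_18 or a9_19 or PTE- a9_16 (0.0563 to 0.0826). No target passed an adjusted p of 0.05.

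Il6, Osm and Lif, which encode other ligands of the family, were each detected in some libraries and not in others. Il6 was above the counting limit in 1 of 20 contralateral and 0 of 17 ipsilateral libraries, Osm in 5 and 3, and Lif in 12 and 12. Differences between groups are not given for these ligands.

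Of the 12 other cytokine receptor genes 11 were tested in a hemisphere. Contralaterally 7 were higher and 4 lower in PTE+ against PTE- (median 0.07), 9 and 2 in PTE- against sham (median 0.28) and 7 and 4 in PTE+ against sham (median 0.31). The leptin receptor gene Lepr was under 0.05 in the first (p = 0.00691, lower) and the second (p = 0.0170, higher). It stood at 0.0539 to 0.246 CPM in PTE+, 0.0193 to 48.1 CPM in PTE- and 0.0528 to 0.591 CPM in sham, so the PTE+ and sham values were near the counting limit. Ipsilaterally 4 were higher and 7 lower in PTE+ against PTE-, 7 and 4 in PTE- against sham, and 4 and 7 in PTE+ against sham. There Csf3r, the G-CSF receptor gene, was under 0.05 (p = 0.0492) in PTE+ against sham, at 0.0197 to 0.546 CPM and 0.0549 to 36.5 CPM.

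The 15 listed negative regulators other than Socs3 were all tested. In contralateral PTE+ against PTE- 10 were higher and 5 lower (median 0.18), with Socs5 (log2 fold change 1.48, SE 0.587, p = 0.0195) and Cish (4.75, SE 2.10, p = 0.0336) under 0.05. Cish, a SOCS family gene, was above 0 in 3 of 5 PTE+ libraries, up to 20.2 CPM, and at 0 to 1.76 CPM in PTE-. In contralateral PTE- against sham 7 were higher and 8 lower, with the phosphatase gene Ptpn2 under 0.05 (1.62, SE 0.654, p = 0.0215), and in PTE+ against sham 9 were higher and 6 lower. Ipsilaterally 12 were higher and 3 lower in PTE+ against PTE- (median 0.44), 6 and 9 in PTE- against sham, and 8 and 7 in PTE+ against sham, with 0 under 0.05 in edgeR. Of the 8 other JAK and STAT genes 7 were tested, with medians between -0.46 and 0.38 and 0 under 0.05 in edgeR in any of the 6 comparisons.

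Both hippocampi were available from 17 mice, 4 PTE+, 8 PTE- and 5 sham, and a joint fit of these libraries compared the sides over 15731 genes. This fit did not use the pairing of the libraries by mouse, and the mouse as a block was an alternative. In PTE+ mice 7 of the 10 genes were higher ipsilaterally and 3 lower, and edgeR gave 0 at an unadjusted p under 0.05, where 2.93% of all genes were. In PTE- mice 5 were higher and 5 lower, and 1 (Jak1) was under 0.05, where 4.56% of all genes were. In sham mice 6 were higher and 4 lower, with 0 under 0.05, where 2.05% of all genes were. Counts of 0 were also obtained with RLE size factors, without the filter on low counts and with the mouse as a block.

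Jak1 was 1.64-fold higher on the ipsilateral side of PTE- mice (log2 fold change 0.71, SE 0.253, unadjusted p = 0.00810, adjusted p = 0.549, edgeR). It was higher in 6 of 8 mice, by 0.69 ± 0.66 in log2(CPM + 1) (mean ± SD), and lower in a9_12 and a9_16. With the mouse as a block the log2 fold change was 0.69 (p = 0.0194), where 315 of the 15731 genes were under 0.05. Leaving out 1 mouse at a time, without the block, gave 0.57 to 0.87, with p under 0.05 in all 8 fits. In PTE+ mice Jak1 was higher in 3 of 4 (0.31, SE 0.357, p = 0.393) and in sham mice in 2 of 5 (0.06, SE 0.319, p = 0.863). The difference of the side effect between PTE- and sham was 0.66 (SE 0.407, p = 0.115), so the effect was not shown to be particular to PTE-.

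Stat3 was higher ipsilaterally in 2 of 4 PTE+, 4 of 8 PTE- and 4 of 5 sham mice, with log2 fold changes of 0.07 (SE 0.369, p = 0.855), -0.08 (SE 0.261, p = 0.772) and 0.42 (SE 0.330, p = 0.213). Socs3 was higher in 1 of 4, 5 of 8 and 2 of 5 mice, with -0.43 (SE 1.08, p = 0.696), 1.35 (SE 0.779, p = 0.0913) and -0.23 (SE 0.968, p = 0.817). Cntfr was lower ipsilaterally in 4 of 4 PTE+, 5 of 8 PTE- and 5 of 5 sham mice, with p of 0.183 or more. Cntf had the largest side differences, 3.10 in PTE+ (p = 0.241), 2.13 in PTE- (p = 0.237) and 3.19 in sham (p = 0.182), and was higher in 3 of 4, 6 of 8 and 3 of 5 mice. With SE of 1.77 to 2.60 no side difference of Cntf was detected.

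The difference of the side effect between groups was tested for each gene. It gave 5 higher and 5 lower for PTE+ against PTE-, with 0 of the 10 under 0.05 in edgeR where 2.94% of all genes were. For PTE- against sham it gave 6 higher and 4 lower, again with 0, where 3.13% of all genes were, and for PTE+ against sham 5 and 5, with 0, where 2.66% of all genes were. RLE size factors, no filter and the mouse as a block also gave 0 in each. For Socs3 the side effect in PTE+ minus that in PTE- was -1.78 (SE 1.34, p = 0.193), and for Stat3 0.14 (SE 0.451, p = 0.752).

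**Figure D5:**
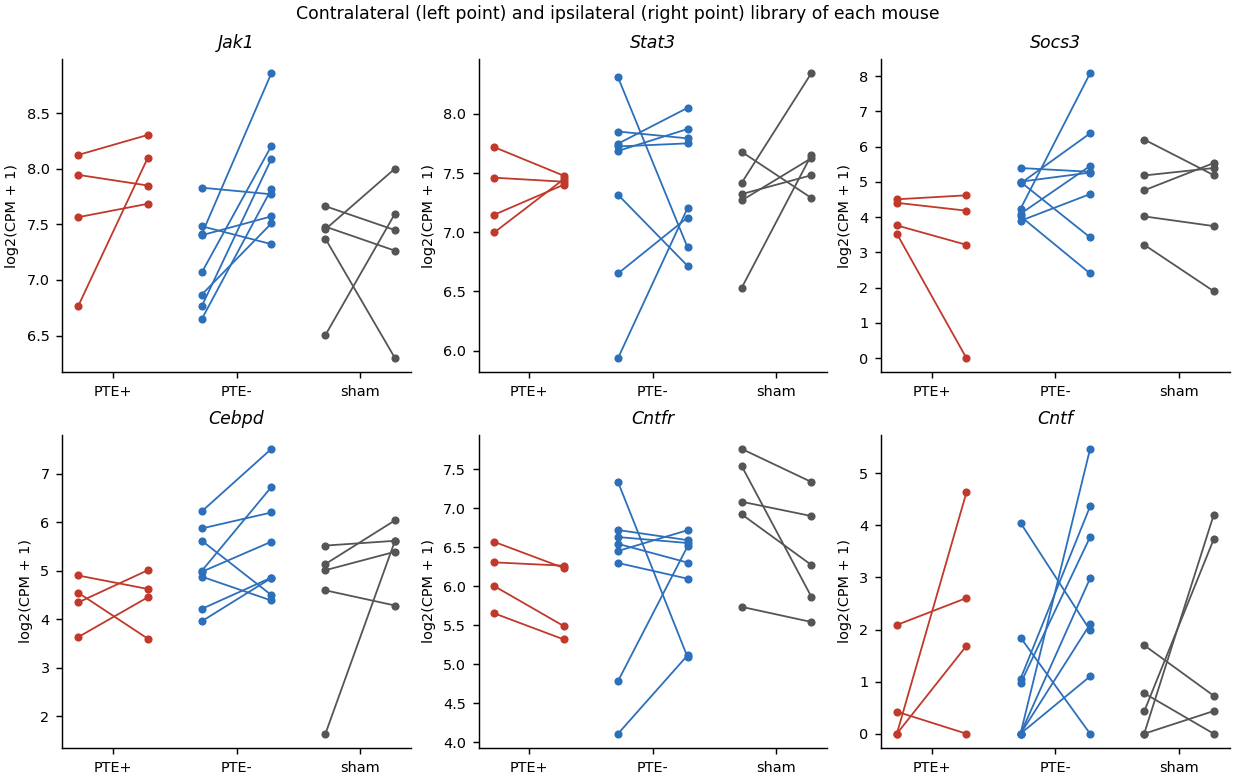
Contralateral (left point) and ipsilateral (right point) level in log2(CPM + 1) of 6 genes, with 1 line per mouse and the CPM scaled within each hemisphere. Jak1 is higher on the ipsilateral side in 6 of 8 PTE- mice, and Cntfr lower in 4 of 4 PTE+ and 5 of 5 sham mice.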

How the data were processed

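RNA of bead-enriched hippocampal astrocytes was sequenced in 37 libraries, and each library's group, hemisphere and mouse were taken from the deposited labels. The authors trimmed reads with Trim Galore 0.6.4 and deposited expected counts, estimated per gene by RSEM 1.2.28 with Bowtie2 2.4.1 on mm10 and given as whole numbers, without normalization. TPM values of the same RSEM estimates were deposited as well. The annotation release and the use of strand are not given in the sources used here. The submitters' notes name DESeq2 1.36.0.

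Symbols and positions came from GENCODE on GRCm38 (21856 of 21975 identifiers matched). Genes were kept by filterByExpr, scaled by TMM and tested with the quasi-likelihood F test of edgeR 4.0.16 in R 4.3.3, with the 3 groups of a hemisphere in 1 fit, and with Benjamini-Hochberg adjustment over all genes tested. Hemispheres were compared in a joint fit of the 17 mice with both libraries. The main fit had no block for the mouse, so both libraries of a mouse were treated as independent. The shared mouse name pairs these libraries, and their deviations from the group means had a median correlation of 0.0838 within 17 pairs compared with -0.0164 over 88 pairs of different mice. Single genes were compared by two-sided exact permutation of log2(CPM + 1). Limits and intervals cover counting error, and depth was 25371887 to 59846479 counts.

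The 10 genes and the lists were chosen with earlier results of these data known. Full statistics are given for Stat3, Socs3 and members with an unadjusted p under 0.05, other pathway genes as counts, naming up to 3 per list and comparison by smallest p below that value. Other members with full statistics were chosen after their values were seen. Alternatives were RLE size factors, no filter, DESeq2 1.42.0, limma 3.58.1 voom with quality weights, the prefix as a covariate, the mouse as a block, leaving out each library or mouse in turn, and leaving out mouse a8_11 with the contralateral library of a9_20. Leaving out the 5 libraries with fewer than 12000 genes was added after seeing the data. The group comparisons of the listed ligands other than Cntf are not reported here. The procedure was tested on simulated counts. Promoter windows came from RefSeq on GRCm38.p6. Python 3.11.15 with matplotlib 3.10.9 made the figures.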

Additional observations from a re-analysis of the deposited data

Results flagged for a closer look

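In each of the 60 sets of libraries, 1 gene in 1 group and hemisphere, the highest and the lowest library were checked for a gap to the others, with Dixon's 95% criterion where the group held 4 to 10 libraries. The check used log2(CPM + 1), so a gap that is wide in CPM, as for ipsilateral Socs3 in PTE- mouse a8_14, need not be marked. Chance alone marks about 1 in 20 such sets, and 5 were marked. Among the contralateral sham libraries, that of mouse a8_16 stood below the others for Cebpd (2.11 CPM, next 23.1 CPM), Il6st (25.5 CPM, next 74.0 CPM) and Jak2 (0 CPM, next 16.4 CPM). The contralateral sham library of a9_10 was low for Jak1 (89.8 CPM, next 164 CPM). The contralateral PTE- library of a9_13 was high for Cntf (15.5 CPM, next 2.60 CPM).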

How the results depend on the processing

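The counts of genes under an unadjusted and an adjusted p of 0.05 moved with the method. In the order PTE+ against PTE-, PTE- against sham and PTE+ against sham, no filter on low counts gave 1527, 1322 and 1143 genes contralaterally and 870, 1123 and 707 ipsilaterally. It gave 886, 1773 and 814 between hemispheres in PTE+, PTE- and sham, and 818, 944 and 705 for the differences of the side effect. The replicate block gave 120, 315 and 52 between hemispheres and 182, 168 and 93 for those differences, and changed no call among the 10 genes.

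DESeq2 gave 366 genes in contralateral PTE- against sham, and 423 in PTE+ against PTE- and 425 in PTE- against sham ipsilaterally. Genes with an adjusted p under 0.05 numbered 23, 26 and 31 contralaterally and 63, 19 and 63 ipsilaterally with DESeq2, compared with 1, 0 and 0 and 0, 0 and 0 with edgeR. Of the 10 genes it called 1 in contralateral PTE+ against PTE- (Socs3, log2 fold change -1.06, p = 0.0303), unadjusted. The DESeq2 count over all genes is not given for that comparison, and edgeR put 323 of 14642 genes under 0.05 there. DESeq2 called 2 in contralateral PTE- against sham (Il6st and Cntfr) and 2 in ipsilateral PTE+ against PTE- (Socs3, -2.41, p = 0.0261, and Cebpd, -1.64, p = 0.00901), unadjusted. Limma voom gave 952, 611 and 627 genes contralaterally and 475, 737 and 451 ipsilaterally, with 0 at an adjusted p under 0.05 in contralateral PTE+ against PTE- and 2 in ipsilateral PTE- against sham. Of the 10 genes it called 0 in contralateral PTE- against sham (Il6st 0.29, p = 0.378), 1 in contralateral PTE+ against sham, 0 in ipsilateral PTE+ against PTE- (Cebpd -0.48, p = 0.387) and 2 in ipsilateral PTE- against sham. It turned Stat3 to -0.033 in contralateral PTE+ against sham, and Stat3 to 0.11 and Socs3 to -0.20 in ipsilateral PTE- against sham. The cause was not tested.

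With the prefix as a covariate, and without mouse a8_11 and the contralateral library of a9_20, 0 genes passed the adjusted p in contralateral PTE+ against PTE- and 0 of the 10 the unadjusted one in ipsilateral PTE+ against PTE- (Cebpd -1.30, p = 0.0641, and -1.04, p = 0.0707). The prefix turned Socs3 to 0.031 in contralateral PTE- against sham. Without the libraries under 12000 genes, 0 genes passed the adjusted p in contralateral PTE+ against PTE-, 0 of the 10 were called in contralateral PTE- against sham (Il6st 0.89, p = 0.0786) and 0 in ipsilateral PTE+ against PTE- (488 genes in all), 523 genes were under 0.05 in ipsilateral PTE+ against sham, and Stat3 turned to 0.11 in ipsilateral PTE- against sham.

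Leaving out 1 library or mouse at a time, the contralateral counts were 0 to 1 genes at an adjusted p under 0.05 in PTE+ against PTE-, and under the unadjusted p 218 to 413 genes (413 without sham a8_15) and 0 to 2 of the 10 in PTE- against sham, and 188 to 329 genes and 0 to 1 of the 10 in PTE+ against sham. Ipsilaterally they were 206 to 509 genes and 0 to 1 of the 10 in PTE+ against PTE-, 166 to 388 genes and 0 to 1 of the 10 in PTE- against sham, and 196 to 506 genes in PTE+ against sham (509 and 506 without PTE+ a9_17), where the median of the 10 genes ran from -0.17 to 0.42. In PTE+ mice 291 to 636 genes differed between hemispheres. Stat3 ran from -0.12 to 0.14 in contralateral PTE+ against sham and from -0.143 to 0.083 in ipsilateral PTE+ against PTE-, and Socs3 from -0.28 to 0.53 in contralateral PTE- against sham. Cebpd in ipsilateral PTE+ against PTE- ran from -1.76 to -1.04. Medians of the 10 genes turned sign in other comparisons too: -0.28 to 0.02 in ipsilateral PTE+ against PTE-, -0.02 to 0.16 in contralateral PTE+ against sham, -0.18 to 0.23 between hemispheres in sham, and for the side effects -0.25 to 0.01, -0.15 to 0.34 and -0.23 to 0.41. RLE size factors changed no call among the 10 genes. Low counts limit Cntf, Il6ra and Jak2 most.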
